A study of Mus musculus with 20 samples.

Results

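Liver RNA was compared between 8 libraries from C57BL/6NTac mice given a guide RNA against Flcn, carried by the adeno-associated virus serotype AAV8, and 7 libraries from mice of the same strain given the phosphate-buffered saline vehicle. Both groups ate a high-fat, high-fructose (HFHF) diet. The libraries were chosen by their treatment and diet labels and are 15 of the 20 in the series. The other 5 came from untreated mice of the strain on standard chow, which differ from both HFHF groups in diet and in having had no vehicle, and their levels are given only as a description. The labels state neither the sex nor the age of the mice, neither the position of the guide nor the source of the nuclease, and do not say that each library is a separate animal, so p-values measure the spread between these libraries. Vehicle contains neither virus nor guide, so an effect of the guide and an effect of the vector cannot be told apart. Each library is bulk liver, in which fewer cells of a type and less RNA per cell cannot be told apart.

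Flcn encodes folliculin, a protein that works with its partners FNIP1 and FNIP2 at the lysosome surface. There it acts on the Rag GTPases and so lets the kinase mTORC1 phosphorylate the transcription factors TFEB and TFE3. Without folliculin these factors stay in the nucleus, where they bind an E-box and drive lysosomal and metabolic genes. The lysosome, matrix and respiratory chain lists are left aside below, and the values describe the rest of the liver transcriptome, with those metabolic enzymes that work in mitochondria and a few matrix genes of other lists. Levels are counts per 1000000 counts (CPM), scaled between libraries by TMM, and fold changes are guide over vehicle on the log2 scale. A gene is said to rise or fall when it passed an adjusted p of 0.05 in edgeR's quasi-likelihood test over all 13667 genes tested.

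The promoters of 4 genes that rose show the DNA letters that the TFEB and TFE3 family is known to bind. They were chosen for their E-box TCACGTGA, which reads the same on both strands, or its relative TCATGTGA, which was searched on both strands. Each stretch is RefSeq's, 5′ to 3′ on the gene's own strand in build GRCm38.p6, and the capitals mark the match.
Pigr, chr1:130826552-130826679, + strand: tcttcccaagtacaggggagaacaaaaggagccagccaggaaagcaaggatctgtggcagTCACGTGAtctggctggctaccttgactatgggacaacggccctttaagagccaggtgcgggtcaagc
Abca8a, chr11:110096007-110096134, - strand: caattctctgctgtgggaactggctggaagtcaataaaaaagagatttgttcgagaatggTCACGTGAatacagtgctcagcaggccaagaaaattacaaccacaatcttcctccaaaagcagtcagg
Fabp3, chr4:130308632-130308737, + strand: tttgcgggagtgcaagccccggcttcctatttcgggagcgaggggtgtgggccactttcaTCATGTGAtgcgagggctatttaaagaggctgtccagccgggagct
Sult2a8, chr7:14446751-14446837, - strand: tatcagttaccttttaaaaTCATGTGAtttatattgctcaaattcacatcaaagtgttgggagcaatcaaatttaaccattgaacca
The match in Pigr lies 72 to 65 bases before the RefSeq start and that in Fabp3 lies 46 to 39 bases before it, with those in Abca8a at 137 to 130 and in Sult2a8 at 231 to 224 bases. The GENCODE gene models start elsewhere for 3 of them, so that the Fabp3 match lies inside the gene and the Abca8a and Sult2a8 matches lie nearer to the start. RefSeq promoters of 300 bases (250 before and 50 after the start) were at hand for 10480 of the 13667 genes. TCACGTGA was found in 1.76% of all 13434 of these promoters, in 2.54% of those of genes that rose and in 0.943% of those of genes that fell. For genes that rose at least 2-fold the share was 2.88%, which is 7 of 243 promoters, so most promoters of these genes have no such letters in this window. TCATGTGA was found in 0.759% of all promoters, 1.2% of those of genes that rose and 0.566% of those of genes that fell, but among genes changed at least 2-fold in 0.823% and 0.829%. The same 2-fold shares were 2.88% and 0.552% for TCACGTGA. TCAAGGTCA, the element of estrogen-related receptors, searched on both strands, was in 0.275% of all promoters, 0.411% for genes that rose and 0.339% for genes that fell. The first 2 motifs differ from each other at 1 base, and no match counted for one motif was counted for another. A match is a description of letters and was not tested as a binding site.

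Flcn itself, the targeted gene, was read at 14.1 to 22 CPM (median 18) with the guide and 17.8 to 26.4 CPM (median 19.9) with vehicle. The ranges overlapped and the difference did not pass the test (log2 fold change -0.22, SE 0.12, adjusted p = 0.14). A count over the whole gene does not report an edit within it, so the level of Flcn RNA neither checks the labels nor measures the editing. Chow libraries held 22.2 ± 6.03 CPM (SD, n = 5). Library totals ran from 13974379 to 19586576 counts with the guide and from 15244760 to 18194089 with vehicle, and the 10 most abundant genes took 21.3% to 28.0% of the counts in these 15 libraries.

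Markers of the liver's cell types show what else the tissue RNA held. Hepatocyte markers (Alb, Apoa1, Ttr, Serpina1c and Tat) summed to 41969 to 73161 CPM with the guide and 37170.3 to 56554 CPM with vehicle, and 2 rose and 0 fell of 5 tested. Stellate cell markers summed to 164 to 214 CPM with the guide and 221 to 299 CPM with vehicle, where 0 rose and 5 fell of 7 tested. Those of monocyte-derived macrophages summed to 85.2 to 216 CPM with the guide and 152 to 372 CPM with vehicle, and 0 rose and 7 fell of 9 tested. Kupffer cell markers overlapped, at 141 to 313 CPM with the guide and 116 to 310.2 CPM with vehicle, although 3 rose and 0 fell of 5 tested. Sinusoidal endothelial markers summed to 139 to 236 CPM with the guide and 112 to 179 CPM with vehicle (3 rose and 0 fell of 6 tested), and B and plasma cell markers to 8.23 to 21.5 CPM with the guide and 3.18 to 7.14 CPM with vehicle (5 rose and 0 fell of 5 tested). Stellate cell, cholangiocyte and B and plasma cell sums did not overlap between the groups. Skeletal and heart muscle markers summed to 0.824 to 2.15 CPM with the guide and 0.894 to 9.82 CPM with vehicle, with the myosins Myh1 and Myh2 at 0 in every library. The adipocyte list's sum, nearly all of it Car3, did not overlap either, at 3389.9 to 5608 CPM with the guide and 1209 to 2464 CPM with vehicle, with Adipoq at 0 in every library.

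The guide group differed from vehicle across a large part of the transcriptome. Of 13667 genes tested, 2673 (19.6%) rose and 2597 (19%) fell, 38.6% in all. Most changes were small: 2036 of the genes that rose and 1036 of those that fell moved by under 1.5-fold. Falls were the larger changes, since 779 genes (5.7%) fell at least 2-fold and 280 (2.05%) rose at least 2-fold. At 4-fold or more the numbers were closer, with 80 genes higher and 95 lower. In 689 genes (5.04%) every guide library lay above every vehicle library, and in 821 (6.01%) every guide library lay below. Under upper-quartile scaling the number called was similar (5138) but 37.8% of the calls were rises, against 50.7% here, and the median log2 fold change over all genes moved by -0.06. That median was 0.01.

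The direction depended on how abundant a gene was. Among the 101 genes of at least 1000 CPM, 49 rose and 10 fell, whereas among the 5053 genes of 1 to 10 CPM, 479 rose and 1350 fell. Genes that rose took up more of each guide library. They held 46.8% ± 3.42 (SD, n = 8) of the counts with the guide and 38.3% ± 1.80 (SD, n = 7) with vehicle, and genes that fell held 7.47% ± 0.487 and 12.1% ± 1.00. These shares describe the called genes and were not tested, because the same libraries chose them.

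**Figure D1:**
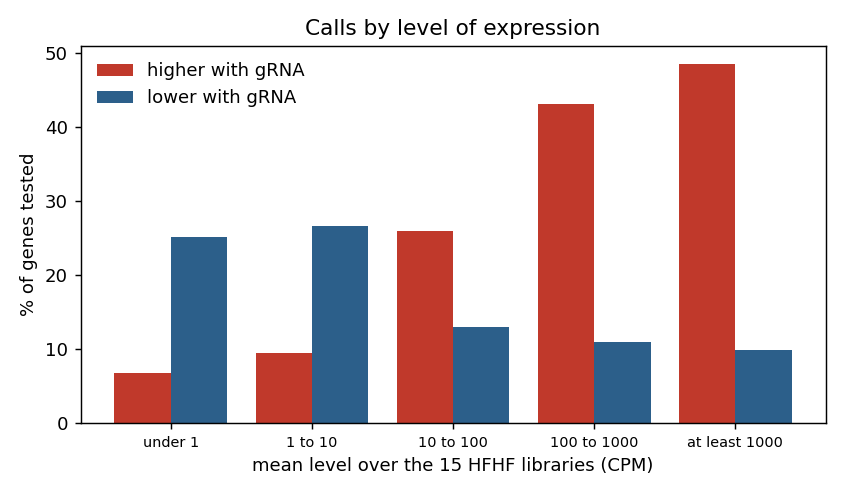
Percent of tested genes that rose (red) or fell (blue) with the Flcn guide, by the gene's mean level in CPM over the 15 HFHF libraries. Rises made up 6.78% of the genes under 1 CPM and 48.5% of those of at least 1000 CPM, while falls made up 25.2% and 9.9%.

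Single libraries carried the response to different degrees. For each library the genes were called without it, and its own differences from the vehicle mean were then set against the fitted changes. A slope of 1 means differences as large as those fitted changes, and 0 means none. A slope of 1 is not the guide average, which was lower and is given below. The 8 guide libraries had slopes of 0.902, 0.848, 0.894, 0.776, 0.813, 1.08, 0.687 and 0.970 (replicates 1 to 8). Vehicle libraries had slopes of 0.00509, 0.0251, 0.103, 0.0702, 0.233, -0.0772 and -0.0468 (replicates 1 to 7). Every guide slope was above every vehicle slope, and vehicle replicate 5 was the vehicle library with the highest slope. The means were 0.871 ± 0.120 (SD, n = 8) and 0.0447 ± 0.104 (SD, n = 7), a difference of 0.826. It is given without a p-value, because the other libraries of these 2 groups chose the genes and set the direction of the slope. The slopes also share vehicle libraries and most of each fit.

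The size of a library's response was not shown to follow its Flcn level. Across the 8 guide libraries Pearson's r was 0.293 (exact permutation p = 0.485) and Spearman's rho 0.452 (exact permutation p = 0.267). Without replicates 3 and 8, which lay farthest from the median Flcn level, r was 0.326 (exact permutation p = 0.476). With slopes over genes changed at least 2-fold r was 0.283 (exact permutation p = 0.502) and rho again 0.452 (exact permutation p = 0.267), and over these 4 values each adjusted p was 0.502 (Benjamini-Hochberg).

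**Figure D2:**
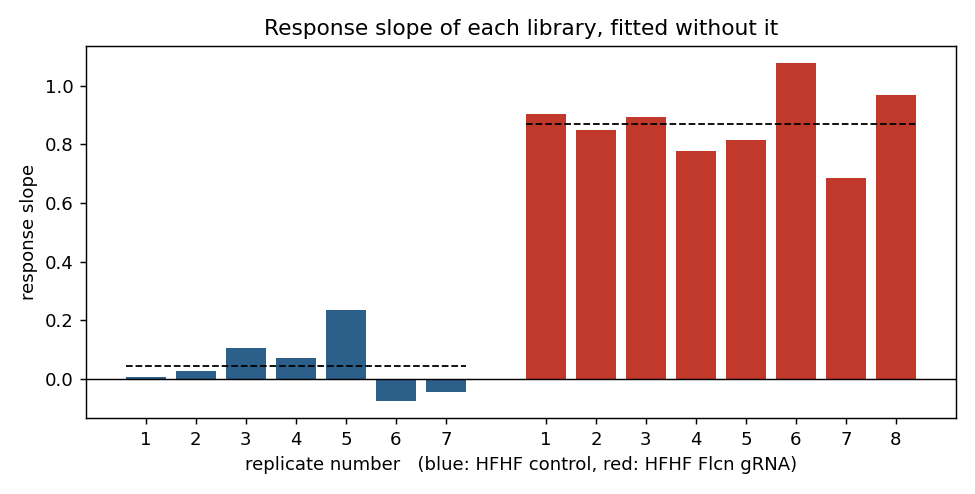
Response slope of each library, fitted without that library, for the 7 vehicle (blue) and 8 Flcn guide (red) libraries, with dashed lines at the group means. All 8 guide libraries lie between 0.687 and 1.08 and all 7 vehicle libraries between -0.0772 and 0.233.

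Among abundant genes without overlap between groups, the largest rises were in enzymes and carriers of the hepatocyte. Sult2a8, a liver sulfotransferase of bile acids whose promoter stretch is printed above, was read at 182 to 716 CPM (median 459) with the guide and 22.4 to 128 CPM (median 46.9) with vehicle. All 8 guide libraries lay above all 7 vehicle libraries (log2 fold change 2.91, SE 0.40, adjusted p = 1.93e-05). Chow libraries were higher than either, at 1003 ± 74 CPM (SD, n = 5). Upp2, a uridine phosphorylase, was read at 184 to 484 CPM (median 254) with the guide and 11.5 to 127 CPM (median 76.5) with vehicle (log2 fold change 2.07, SE 0.44, adjusted p = 0.00124). Slc1a2 encodes a glutamate transporter that in liver marks hepatocytes around the central vein, and it was read at 216 to 333 CPM (median 298) with the guide and 43.5 to 129.9 CPM (median 73.9) with vehicle (log2 fold change 1.91, SE 0.17, adjusted p = 9.19e-08). The fatty acid omega-hydroxylases Cyp4a10 and Cyp4a14 are known targets of PPARα. Cyp4a10 was read at 330.3 to 715 CPM (median 462) with the guide and 76.6 to 245 CPM (median 139.6) with vehicle and Cyp4a14 at 208 to 798 CPM (median 419.6) with the guide and 33.1 to 204 CPM (median 145) with vehicle, with log2 fold changes of 1.76 and 1.84. Reads may be shared between these close relatives, so their separate values are uncertain. For both, every guide library lay above every vehicle library. Ppara, which encodes PPARα itself, rose as well, from a vehicle range of 64.4 to 111 CPM (median 94) to a guide range of 125 to 191 CPM (median 159) (log2 fold change 0.79, SE 0.10, adjusted p = 4.29e-06).

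Lower in abundance, rises of a larger fold appeared in genes that vehicle livers barely expressed. Mogat2, which makes diacylglycerol from monoacylglycerol, was read at 2.41 to 17.8 CPM (median 5.83) with the guide and 0.112 to 0.671 CPM (median 0.361) with vehicle (log2 fold change 4.32, SE 0.46, adjusted p = 6.87e-07). Prkg2, a cGMP-dependent protein kinase, was read at 3.52 to 9.62 CPM (median 5.2) with the guide and 0.505 to 0.979 CPM (median 0.656) with vehicle (log2 fold change 3.16, SE 0.26, adjusted p = 1.11e-08). Chow libraries held little of either, 0.0717 ± 0.0472 CPM and 0.0707 ± 0.102 CPM (SD, n = 5). Il12rb2, a chain of the interleukin-12 receptor, was read at 1.48 to 11 CPM (median 4.8) with the guide and 0.206 to 0.729 CPM (median 0.366) with vehicle (log2 fold change 3.89, SE 0.39, adjusted p = 1.80e-07), and its lowest guide library was still above every vehicle library. Cd163, the macrophage scavenger receptor for haemoglobin bound to haptoglobin, was read at 3.44 to 11 CPM (median 6.93) with the guide and 0.107 to 1.31 CPM (median 0.894) with vehicle (log2 fold change 3.16, SE 0.36, adjusted p = 1.76e-06). Here the chow libraries were highest, at 17 ± 5.44 CPM. Of 5 Kupffer cell markers 3 rose. Timd4 was 5.08 ± 1.72 CPM with the guide against 1.05 ± 0.671 CPM with vehicle (log2 fold change 2.27, adjusted p = 9.97e-06), with chow at 5.43 ± 1.27 CPM. Marco, which overlapped between groups, was 5.53 ± 3.08 CPM with the guide against 1.16 ± 0.617 CPM with vehicle (log2 fold change 2.27, adjusted p = 6.69e-04), with chow at 5.42 ± 3.73 CPM. Clec4f was 63.3 ± 18.4 CPM with the guide against 39.9 ± 15.3 CPM with vehicle (log2 fold change 0.66, adjusted p = 0.0353), with overlap. Cd5l, the most abundant of the 5, was 114 ± 40.6 CPM with the guide against 153 ± 55.5 CPM with vehicle and did not pass (log2 fold change -0.43, adjusted p = 0.199), and nor did Vsig4 (log2 fold change 0.24, adjusted p = 0.448). The summed level of the 5 had a median of 207 CPM with the guide, 242 CPM with vehicle and 126 CPM on chow.

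**Figure D3:**
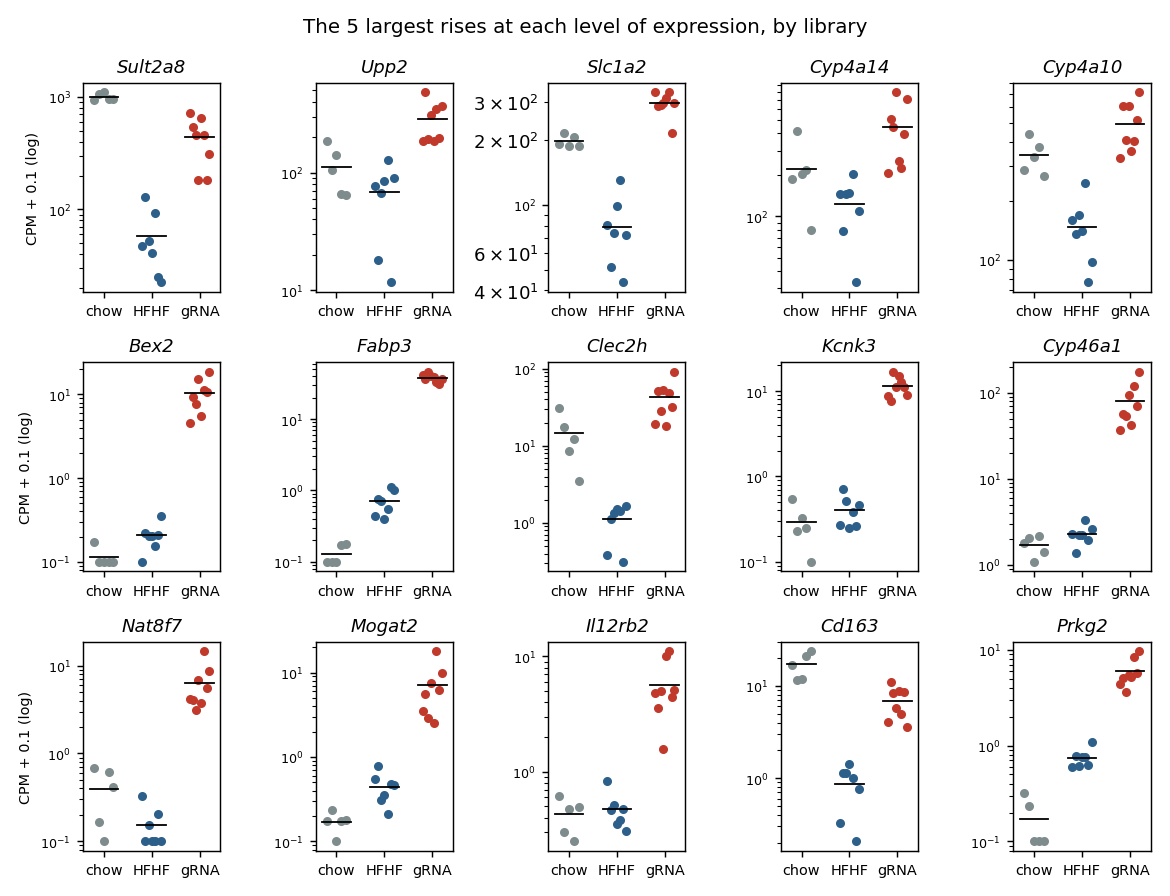
CPM plus 0.1 on a log axis in each chow, HFHF vehicle (HFHF) and Flcn guide (gRNA) library for the 5 largest rises at each of 3 levels of expression (at least 100 CPM, 10 to 100 CPM and 4 to 10 CPM, from top to bottom); bars are group means. In all 15 genes no guide library overlaps a vehicle library, a property by which they were chosen, and in Sult2a8 and Cd163 chow lies above both.

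By the CPM gained, the leading genes without overlap between groups were plasma proteins, a receptor and enzymes. Selenop, the selenium carrier of plasma, was 9315 ± 1417 CPM with the guide against 6203 ± 454 CPM with vehicle (SD, n = 8 and 7; log2 fold change 0.59, adjusted p = 2.64e-05). Its guide mean lay above the chow mean of 5114 ± 247 CPM as well. Car3, a carbonic anhydrase of hepatocytes, muscle and fat, was 4204 ± 813 CPM with the guide against 1691 ± 408 CPM with vehicle (log2 fold change 1.31, adjusted p = 4.82e-07). Pigr, the receptor that carries immunoglobulin A into bile, was read at 1250.5 to 1914 CPM (median 1476) with the guide and 537 to 878 CPM (median 727) with vehicle (log2 fold change 1.14, SE 0.11, adjusted p = 5.75e-08), and chow libraries held 1601 ± 169 CPM. Ephx2, the soluble epoxide hydrolase, was read at 1087 to 1592 CPM (median 1223) with the guide and 578 to 815 CPM (median 721) with vehicle (log2 fold change 0.87, SE 0.09, adjusted p = 1.08e-07). None of these 4 overlapped between groups. Fga, a fibrinogen chain, gained CPM too (2972 to 3944 CPM (median 3242) with the guide and 2439 to 2902 CPM (median 2707) with vehicle), but its change was small (log2 fold change 0.30, SE 0.10, adjusted p = 0.0206) and under upper-quartile scaling it no longer passed (adjusted p = 0.0617).

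Most genes of amino acid catabolism rose. Of 60 genes tested, 46 rose and 2 fell, with a median log2 fold change of 0.40 against 0.01 over all genes. Oat, ornithine aminotransferase, is a mitochondrial enzyme of ornithine breakdown. It was read at 743 to 999 CPM (median 881) with the guide and 240.3 to 650.4 CPM (median 293) with vehicle (log2 fold change 1.24, SE 0.18, adjusted p = 2.49e-05). The valine enzymes moved together: Hibch went from 48.9 to 66.9 CPM (median 55.2) to 75.8 to 87.1 CPM (median 81.5) (log2 fold change 0.54, adjusted p = 7.99e-07) and Acad8 from 41.3 to 47.5 CPM (median 43.4) to 54.4 to 64.1 CPM (median 58.7) (log2 fold change 0.41, adjusted p = 1.09e-06). For Oat, Hibch and Acad8 the groups did not overlap. Under upper-quartile scaling 41 of the group's genes rose and 3 fell.

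Neighbouring nitrogen and one-carbon pathways were mixed. In the urea cycle 4 of 12 genes rose and 1 fell, 41.7% in all beside 38.6% of all genes. Asl, argininosuccinate lyase, was read at 252 to 413 CPM (median 333) with the guide and 166 to 259 CPM (median 204) with vehicle (log2 fold change 0.72, SE 0.12, adjusted p = 4.17e-05) and Otc, ornithine transcarbamylase, at 323 to 478 CPM (median 444) with the guide and 271 to 355 CPM (median 309) with vehicle (log2 fold change 0.48, SE 0.09, adjusted p = 1.27e-04), each with some overlap between groups. Slc25a13, the mitochondrial aspartate-glutamate carrier that feeds the cycle, rose without overlap (log2 fold change 0.44, adjusted p = 2.90e-05). Of 27 genes of methionine, serine and folate metabolism, 9 rose and 5 fell. The cytosolic enzymes Shmt1 (log2 fold change 0.50, adjusted p = 4.58e-05) and Mthfd1 (log2 fold change 0.50, adjusted p = 1.83e-05) rose, while Mthfd1l, their mitochondrial partner, fell from 4.48 to 7.97 CPM (median 6.73) to 0.825 to 4.2 CPM (median 1.66) (log2 fold change -1.65, SE 0.24, adjusted p = 1.10e-05). The guide and vehicle libraries did not overlap for these 3 genes. Among 16 aldehyde dehydrogenases 7 rose, including Aldh5a1 (log2 fold change 0.44, adjusted p = 1.76e-05) and Aldh6a1 (log2 fold change 0.57, adjusted p = 2.51e-05), and 2 fell, with Aldh18a1, which makes proline precursors, at log2 fold change -1.29, adjusted p = 1.84e-04.

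Drug and bile acid metabolism rose in part. Of 43 cytochromes P450 of families 1 to 3, 21 rose and 2 fell (median 0.39). Cyp1a2, which oxidises caffeine and aromatic amines around the central vein, was read at 212 to 400.2 CPM (median 335) with the guide and 64.6 to 149.8 CPM (median 92.4) with vehicle (log2 fold change 1.68, SE 0.16, adjusted p = 1.75e-07). Even the lowest guide library was above the highest vehicle library, and chow libraries held 609.6 ± 131 CPM. Cyp1b1, a relative expressed mainly outside hepatocytes, moved the other way, from 1.62 to 3.6 CPM (median 2.72) to 0.352 to 1.37 CPM (median 0.977) (log2 fold change -1.51, adjusted p = 2.40e-05). Of 26 conjugating UDP-glucuronosyltransferases and sulfotransferases, 13 rose and 2 fell (median 0.46). Sult5a1 was read at 8.17 to 45.2 CPM (median 15.5) with the guide and 1.04 to 6.83 CPM (median 2.32) with vehicle (log2 fold change 2.86, SE 0.42, adjusted p = 3.64e-05) and Sult1c2 at 15.1 to 36.6 CPM (median 23.4) with the guide and 3.29 to 8.14 CPM (median 5.9) with vehicle (log2 fold change 1.98, SE 0.20, adjusted p = 3.10e-07). The chow mean of Sult1c2, 3.73 ± 1.14 CPM, was nearer vehicle than guide, unlike that of Sult5a1, 13 ± 3.34 CPM.

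Glutathione S-transferases leaned downwards instead. 3 of 22 rose and 8 fell, with a median of -0.20. Gstm3 was read at 24.9 to 281 CPM (median 48.5) with the guide and 218 to 527 CPM (median 325) with vehicle, and the groups overlapped (log2 fold change -1.88, SE 0.45, adjusted p = 0.00304). Gstm1, a far more abundant relative, was read at 639.9 to 1653 CPM (median 899) with the guide and 1559.6 to 2659 CPM (median 1657) with vehicle (log2 fold change -0.94, SE 0.20, adjusted p = 7.41e-04). Gsto1, of the omega class, rose from 37.3 to 48.6 CPM (median 43.5) to 58.9 to 78.7 CPM (median 69.5) without overlap (log2 fold change 0.67, adjusted p = 7.11e-07). Close sequence similarity among Gstm genes can split reads between them. Uptake carriers of the Slco family rose in 4 of 7 cases: Slco1b2, which takes bile acids and drugs from blood, was read at 1121 to 1533 CPM (median 1388) with the guide and 690.3 to 1050.2 CPM (median 823) with vehicle (log2 fold change 0.70, SE 0.09, adjusted p = 1.96e-06). Slco3a1 was the 1 that fell (log2 fold change -1.11, adjusted p = 6.89e-06). Among 40 ABC transporters 13 rose and 7 fell. Abca8a, the second E-box gene shown above, was read at 49.7 to 104 CPM (median 74.4) with the guide and 27.7 to 42.8 CPM (median 36.2) with vehicle (log2 fold change 1.04, SE 0.14, adjusted p = 1.08e-05), while Abca5 fell (log2 fold change -0.61, adjusted p = 2.98e-06).

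Hepatocyte genes of the zones of the liver lobule were called to different degrees. Of 23 periportal hepatocyte genes 13 rose and 10 did not pass (median 0.31), and of 24 pericentral genes 8 rose, 1 fell and 15 did not pass (median 0.09). In all, 56.5% of the periportal and 37.5% of the pericentral genes were called, beside 38.6% of all genes. The pericentral share is thus near that of all genes. The difference between the periportal and pericentral counts was not tested. Cyp2f2, a periportal cytochrome, was read at 566 to 825 CPM (median 746) with the guide and 386 to 600.0 CPM (median 514) with vehicle (log2 fold change 0.52, SE 0.10, adjusted p = 2.32e-04). Ftcd, which breaks down histidine by way of folate, was read at 211 to 296 CPM (median 242) with the guide and 146 to 196 CPM (median 179.5) with vehicle (log2 fold change 0.52, SE 0.08, adjusted p = 3.30e-05). Cyp2f2 overlapped slightly between groups and Ftcd did not. Slc1a4, a neutral amino acid carrier, was the pericentral gene that fell, read at 2.32 to 7.48 CPM (median 5.73) with the guide and 13.6 to 38.6 CPM (median 15.7) with vehicle (log2 fold change -1.86, SE 0.27, adjusted p = 2.56e-05). Its sister Slc1a5 fell too (log2 fold change -1.34, adjusted p = 9.43e-06), the reverse of Slc1a2 of the same transporter family.

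Plasma proteins made by hepatocytes divided by class. Of 30 coagulation genes 17 rose and 5 fell (median 0.28). Factor V (F5) was read at 547 to 807 CPM (median 702) with the guide and 426 to 541 CPM (median 529) with vehicle (log2 fold change 0.47, SE 0.07, adjusted p = 4.07e-05) and factor X (F10) at 239.9 to 299 CPM (median 279.5) with the guide and 194 to 231 CPM (median 218) with vehicle (log2 fold change 0.36, SE 0.06, adjusted p = 5.03e-05). Both were clear of the vehicle range, while Pros1, the anticoagulant protein S, fell from 78.2 to 87.5 CPM (median 83.2) to 55.5 to 71.5 CPM (median 66.9) (log2 fold change -0.34, adjusted p = 6.82e-05). Complement genes rose in 11 of 28 cases and fell in 1, 42.9% in all beside 38.6% of all genes. Masp2 of the lectin pathway rose from 119 to 160.1 CPM (median 139) to 175 to 228 CPM (median 182) (log2 fold change 0.46, adjusted p = 1.16e-05) and C2, of the classical pathway, from 41.8 to 54.9 CPM (median 46) to 61.8 to 78.2 CPM (median 66.2) (log2 fold change 0.51, adjusted p = 3.24e-06). Cfd, complement factor D, is otherwise a product of fat cells. It was read at 4.82 to 35.3 CPM (median 14) with the guide and 0.361 to 6.35 CPM (median 1.35) with vehicle (log2 fold change 2.83, SE 0.50, adjusted p = 2.12e-04), with overlap between groups, and with the adipocyte gene Adipoq at 0 in all 15 libraries.

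Some other secreted products fell, while of 35 hepatokines and secreted hormones 9 rose and 8 fell (median 0.09). Haptoglobin (Hp) lost the most CPM of the genes without overlap between groups, at 1967 ± 348 CPM with the guide against 3861 ± 513 CPM with vehicle (SD, n = 8 and 7; log2 fold change -0.97, adjusted p = 5.11e-06). Ceruloplasmin (Cp), the copper oxidase of plasma, was read at 1059 to 1416 CPM (median 1277) with the guide and 1643 to 2054 CPM (median 1806) with vehicle (log2 fold change -0.54, SE 0.07, adjusted p = 7.57e-06), and H2-Q10, a secreted class I molecule of liver, at 966 to 1265 CPM (median 1168) with the guide and 1292 to 1812 CPM (median 1450.2) with vehicle (log2 fold change -0.39, SE 0.08, adjusted p = 3.50e-04). No guide library reached the vehicle range in these 3. Steap4, a metalloreductase, fell as well, from 153 to 272 CPM (median 219.7) to 62.4 to 122 CPM (median 96.2) (log2 fold change -1.26, adjusted p = 1.74e-06). Among 36 heme and iron genes as a whole 9 rose and 6 fell, 41.7% in all beside 38.6% of all genes. Serpins of clade A went both ways, 5 up and 4 down of 15. Serpina1d was 1931 ± 399 CPM with the guide against 1219 ± 193 CPM with vehicle (log2 fold change 0.66, adjusted p = 1.75e-04), and Serpina3g, an intracellular relative, was 5.97 ± 1.54 CPM with the guide against 14 ± 3.31 CPM with vehicle (log2 fold change -1.23, adjusted p = 6.99e-05). Serpina1 and Serpina3 copies are close enough to share reads.

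Growth hormone signalling genes were higher in 8 of 21 cases and lower in 3. Ghr, the growth hormone receptor, was read at 542 to 667 CPM (median 618) with the guide and 370.5 to 478 CPM (median 407) with vehicle (log2 fold change 0.56, SE 0.07, adjusted p = 1.19e-06). Igfals, which holds IGF1 in plasma, was read at 24.3 to 39.1 CPM (median 35.1) with the guide and 13.3 to 21.6 CPM (median 15.3) with vehicle (log2 fold change 1.10, SE 0.11, adjusted p = 8.20e-08), and Prlr, the prolactin receptor, at 59.9 to 87.7 CPM (median 72.1) with the guide and 18.2 to 45.7 CPM (median 37.5) with vehicle (log2 fold change 1.05, SE 0.16, adjusted p = 5.20e-05). In these 3 genes the groups did not overlap and the chow means, 638 ± 46.2 CPM, 51.1 ± 4.28 CPM and 124 ± 26.6 CPM, lay beyond the guide means. Igfbp7, an IGF-binding protein of vessels and stellate cells, fell (log2 fold change -1.01, adjusted p = 6.32e-07), beside the stellate cell sums given above, whose part in this fall was not tested. Fgf21, the fasting hormone of liver, was read at 1.71 to 3.99 CPM (median 2.89) with the guide and 3.14 to 9.71 CPM (median 5.75) with vehicle (log2 fold change -1.10, SE 0.25, adjusted p = 0.00151), with overlap.

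Major urinary proteins, pheromone carriers under growth hormone control, varied widely within groups. Of 21 genes 10 rose and 1 fell, with a median of 1.64. Mup1 ran over 10.1 to 440.4 CPM (median 106) with the guide and 1.68 to 78.8 CPM (median 9.48) with vehicle (log2 fold change 3.14, SE 0.86, adjusted p = 0.00775) and Mup22 over 825 to 4024 CPM (median 2865) with the guide and 362 to 2145 CPM (median 1032) with vehicle (log2 fold change 1.22, SE 0.34, adjusted p = 0.00896). Both overlapped widely between groups, and chow libraries held 856 ± 212 CPM and 4767 ± 838 CPM. Mup20, named after its values were seen as the 1 that fell, was 7364 ± 3221 CPM with the guide against 12958 ± 3256 CPM with vehicle (log2 fold change -0.82, adjusted p = 0.0144). These copies are nearly identical, so the split of reads among them is uncertain. The number that rose was 15 by DESeq2 and ran from 8 to 18 as each of the 15 libraries was left out.

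Peroxisomal genes rose in 27 of 53 cases and fell in 3 (median 0.21), though 15 rose under upper-quartile scaling. Nudt7, which cleaves coenzyme A in peroxisomes, was read at 193 to 363 CPM (median 287) with the guide and 89.3 to 214 CPM (median 123) with vehicle (log2 fold change 1.03, SE 0.18, adjusted p = 1.59e-04). Acox3, an oxidase of branched-chain fatty acids, rose without overlap from 20.3 to 22.6 CPM (median 21.9) to 25.3 to 33.4 CPM (median 29) (log2 fold change 0.45, adjusted p = 2.98e-06). Far1, which makes fatty alcohols for ether lipids, fell from 5.49 to 7.58 CPM (median 6.22) to 3.23 to 4.57 CPM (median 3.71) (log2 fold change -0.75, adjusted p = 1.27e-05). Acyl-CoA thioesterases rose in 3 of 11 cases, among them Acot1 (log2 fold change 0.99, adjusted p = 9.28e-05), and Acot9 fell (log2 fold change -1.14, adjusted p = 2.18e-06). Of 15 carboxylesterases 5 rose and 10 did not pass, with Ces1e at log2 fold change 0.56, adjusted p = 3.88e-05. In all, 36.4% of the thioesterases and 33.3% of the carboxylesterases were called, beside 38.6% of all genes.

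Sugar metabolism changed in both directions, 14 genes up and 16 down of 53. Hk2, the hexokinase of muscle and tumours, was read at 1.34 to 5.49 CPM (median 3.42) with the guide and 16.2 to 25 CPM (median 21.4) with vehicle (log2 fold change -2.69, SE 0.20, adjusted p = 5.99e-09), and chow libraries held 1.21 ± 0.332 CPM. Pkm, the pyruvate kinase gene that normal hepatocytes replace with Pklr, was read at 12.3 to 27 CPM (median 20.8) with the guide and 34.9 to 57.8 CPM (median 42.8) with vehicle (log2 fold change -1.18, SE 0.16, adjusted p = 7.52e-06). Pfkfb4, a regulator of glycolytic flux, was 0.752 ± 0.348 CPM with the guide against 2.35 ± 0.664 CPM with vehicle (log2 fold change -1.63, adjusted p = 3.33e-05). Against these falls Ldhb, the heart-type lactate dehydrogenase subunit, rose and was read at 7.42 to 13.6 CPM (median 8.38) with the guide and 1.95 to 2.68 CPM (median 2.37) with vehicle (log2 fold change 2.01, SE 0.18, adjusted p = 3.33e-08). The groups were apart for Hk2, Pkm and Ldhb, and the guide levels of Ldhb were also above the chow mean of 1.77 ± 0.84 CPM.

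Sphingolipid genes included one of the larger rises. Sptlc3, an alternative subunit of serine palmitoyltransferase, which starts sphingolipid synthesis, was read at 5.99 to 33.1 CPM (median 9.62) with the guide and 0.0561 to 1.89 CPM (median 0.259) with vehicle (log2 fold change 4.49, SE 0.50, adjusted p = 1.76e-06). Chow libraries held 0.0156 ± 0.0348 CPM, so levels this high were seen in guide libraries only among the 20. Ormdl1, a brake on the same enzyme, rose from 15.8 to 19.3 CPM (median 17.2) to 23.6 to 28.1 CPM (median 26.6) (log2 fold change 0.63, adjusted p = 6.45e-08) and Sgpl1, which degrades sphingosine phosphate, from 54.8 to 69.7 CPM (median 60.3) to 82.9 to 119 CPM (median 103) (log2 fold change 0.74, adjusted p = 1.99e-07). B4galt6, which makes lactosylceramide, fell (log2 fold change -1.76, adjusted p = 4.62e-07). Of the 31 genes 8 rose and 3 fell, 35.5% in all beside 38.6% of all genes. Their median was 0.02, and -0.03 under upper-quartile scaling.

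Among regulators, 13 of 38 nuclear receptor genes rose and 3 fell, 42.1% in all beside 38.6% of all genes. Under upper-quartile scaling 10 rose and 6 fell, and the number that fell ran from 1 to 4 as each library was left out. Besides Ppara, the thyroid receptor Thrb was 38.3 ± 4.28 CPM with the guide against 28.7 ± 3.19 CPM with vehicle (log2 fold change 0.42, adjusted p = 1.18e-04) and the glucocorticoid receptor Nr3c1 was 92.7 ± 5.37 CPM with the guide against 76.6 ± 4.91 CPM with vehicle (log2 fold change 0.28, adjusted p = 1.25e-04). Rarg, a retinoic acid receptor, fell (log2 fold change -0.69, adjusted p = 4.23e-05). In thyroid hormone handling 5 of 16 genes rose and 3 fell. Hr, a corepressor of the thyroid receptor, fell from 3.69 to 6.71 CPM (median 4.74) to 0.975 to 2.96 CPM (median 1.4) (log2 fold change -1.56, adjusted p = 9.40e-06). Of 38 liver transcription factors 4 rose and 6 fell, 26.3% in all beside 38.6% of all genes. Leaving out each library gave 2 to 6 rises and 3 to 5 falls, with 3 and 3 without guide replicate 8, and 2 rose under upper-quartile scaling. Creb3l3, a fasting regulator, rose (log2 fold change 0.31, adjusted p = 2.44e-04), as did the sugar sensor Mlxipl (log2 fold change 0.56, adjusted p = 4.34e-04), and Sox4 fell from 6.65 to 20.6 CPM (median 12.4) to 2.64 to 5.27 CPM (median 3.52) (log2 fold change -1.87, adjusted p = 3.66e-06). Clock genes rose in 6 of 24 cases and fell in 2, 33.3% in all beside 38.6% of all genes. Hlf, an output factor of the clock, was read at 45.4 to 73.7 CPM (median 55.3) with the guide and 28.9 to 46 CPM (median 36.3) with vehicle (log2 fold change 0.64, adjusted p = 5.12e-05), while the times of day at which livers were taken are not given in the labels.

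**Figure D4:**
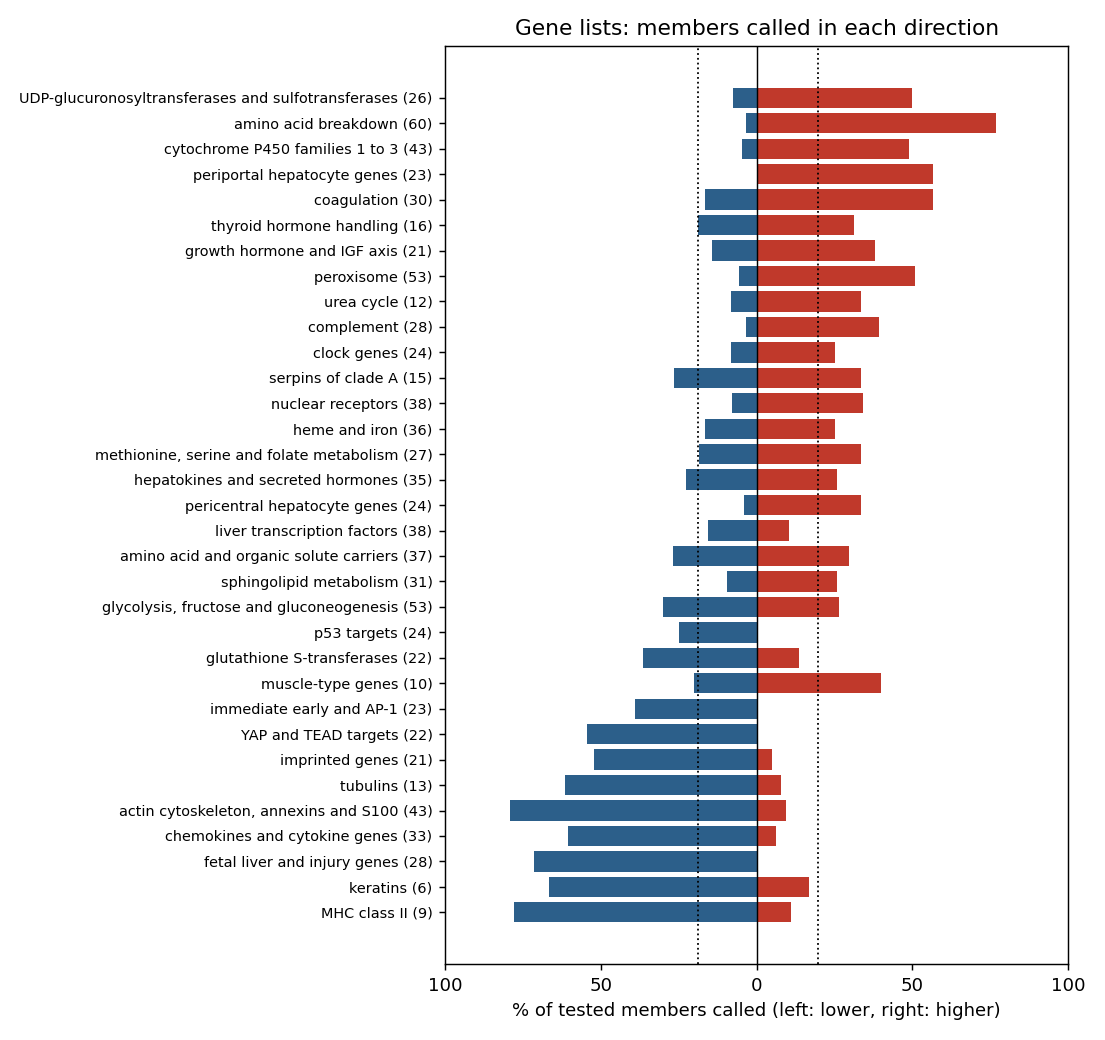
Percent of tested members of each of 33 gene lists that rose (right, red) or fell (left, blue) with the Flcn guide; the number tested is in brackets, lists are ordered by median log2 fold change, and dotted lines mark 19.6% and 19% over all genes. Amino acid breakdown (46 of 60 higher) has the longest bar to the right, and actin cytoskeleton, annexins and S100 (34 of 43 lower) and MHC class II (7 of 9 lower) the longest to the left.

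Most genes of the actin cytoskeleton fell. Of 43 actin-binding proteins, annexins and S100 proteins 34 fell and 4 rose (median -0.74), where 2 rose under upper-quartile scaling. Anxa2, which links membranes to actin, was read at 39.7 to 79.5 CPM (median 50.1) with the guide and 141 to 238 CPM (median 184) with vehicle (log2 fold change -1.74, SE 0.15, adjusted p = 8.08e-08). Actb, cytoplasmic actin and a frequent reference gene, was read at 541 to 667 CPM (median 593) with the guide and 739 to 1020.5 CPM (median 913) with vehicle (log2 fold change -0.60, SE 0.08, adjusted p = 3.31e-06). Tmsb10, which binds free actin, was 19 ± 2.73 CPM with the guide against 53.9 ± 11.9 CPM with vehicle (log2 fold change -1.50, adjusted p = 9.74e-09), and the tropomyosin Tpm4 was 21.2 ± 2.02 CPM with the guide against 40.9 ± 5.79 CPM with vehicle (log2 fold change -0.95, adjusted p = 2.02e-08). No guide library reached the vehicle range in these 4 genes. The chow means of Anxa2, 10.7 ± 1.49 CPM, and Tmsb10, 8.68 ± 1.05 CPM, were lower still, and that of Actb, 593 ± 61.6 CPM, lay inside the guide range.

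Most tubulins and keratins fell too, and 1 gene of each group rose. Of 13 tubulins 8 fell and 1 rose (median -0.58). Tubb2b was read at 0.11 to 0.926 CPM (median 0.469) with the guide and 1.95 to 11.8 CPM (median 6.16) with vehicle and Tubb6 at 3.41 to 6.85 CPM (median 5.81) with the guide and 12.2 to 26.1 CPM (median 17.2) with vehicle, with log2 fold changes of -3.88 and -1.68. The tubulin that rose, Tuba8, a muscle and testis isoform, was read at 6.17 to 13.8 CPM (median 7.92) with the guide and 1.04 to 2.45 CPM (median 1.65) with vehicle (log2 fold change 2.32, SE 0.20, adjusted p = 2.05e-08), and chow libraries held 0.899 ± 0.349 CPM. Of 6 keratins 4 fell and 1 rose. Krt18, a hepatocyte keratin, was read at 120.3 to 159 CPM (median 142) with the guide and 296 to 446 CPM (median 349) with vehicle (log2 fold change -1.37, SE 0.09, adjusted p = 7.64e-10), while Krt23 rose, read at 3.55 to 9.23 CPM (median 6.69) with the guide and 1.85 to 3.93 CPM (median 2.58) with vehicle (log2 fold change 1.31, SE 0.25, adjusted p = 3.17e-04). Reads of Krt18 may be shared with its pseudogenes. Cholangiocyte markers summed to 44.5 to 93.9 CPM with the guide and 106 to 242 CPM with vehicle, and their part in these falls was not tested.

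In adhesion receptors and in targets of the Hippo pathway, more genes fell than did not pass. Among 24 integrins 14 fell and 10 did not pass. Itgam, a chain of myeloid cells that was also among the macrophage markers, was 1.1 ± 0.427 CPM with the guide against 4.06 ± 0.699 CPM with vehicle (log2 fold change -1.87, adjusted p = 5.37e-07), and Itgb5, which is broadly expressed, was 56.2 ± 3.46 CPM with the guide against 71.3 ± 4.63 CPM with vehicle (log2 fold change -0.34, adjusted p = 2.51e-05). Genes induced by the Hippo coactivator YAP, read with its partner factors, fell in 12 of 22 cases, and 10 did not pass. Ajuba was 3.68 ± 0.803 CPM with the guide against 9.86 ± 2.86 CPM with vehicle (log2 fold change -1.42, adjusted p = 6.35e-07) and Tead1, a DNA-binding partner of YAP, 16.4 ± 2.93 CPM with the guide against 24.4 ± 1.93 CPM with vehicle (log2 fold change -0.57, adjusted p = 4.23e-05).

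Stress and injury genes were lower. Of 28 genes of fetal or injured liver 20 fell and 8 did not pass (median -0.97), and by DESeq2 2 rose. Lcn2, a siderophore-binding protein of injured hepatocytes and neutrophils, was read at 4.88 to 48.5 CPM (median 20.2) with the guide and 96.9 to 211 CPM (median 125) with vehicle (log2 fold change -2.67, SE 0.43, adjusted p = 1.10e-04). Spp1, osteopontin, was read at 22.7 to 74.3 CPM (median 33.3) with the guide and 85.4 to 210.2 CPM (median 183) with vehicle (log2 fold change -1.98, SE 0.26, adjusted p = 1.16e-05). Tnfrsf12a, the receptor of TWEAK, was read at 2.69 to 5.2 CPM (median 3.79) with the guide and 8.49 to 20.9 CPM (median 14.9) with vehicle (log2 fold change -1.97, SE 0.21, adjusted p = 3.79e-07). In all 3 the groups were separate, and the chow means were 5.64 ± 6.24 CPM, 19.9 ± 3.14 CPM and 2.03 ± 0.985 CPM. Spp1 is itself one of the macrophage and cholangiocyte markers. Neutrophil markers summed to 6.3 to 12.3 CPM with the guide and 10.3 to 14.8 CPM with vehicle, and the part of these cells was not tested.

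In the growth and damage lists 39.1% of immediate early genes, 25% of p53 targets and 36% of cyclins and their kinases were called, beside 38.6% of all genes. These shares are near or under that of all genes, but nearly all of the calls were falls. Over all genes 19.6% rose and 19% fell. The lean of these lists towards falls was not tested. Of 23 immediate early genes 9 fell and 14 did not pass, with Ier3 at 0.677 ± 0.283 CPM with the guide against 2.07 ± 0.681 CPM with vehicle (log2 fold change -1.60, adjusted p = 8.50e-05) and Egr2 at 0.528 ± 0.275 CPM with the guide against 1.96 ± 0.583 CPM with vehicle (log2 fold change -1.89, adjusted p = 2.75e-04). Their median of -0.29 ran from -0.63 to 0.02 across the alternative settings. Among 24 p53 targets 6 fell and 18 did not pass. Cdkn1a, the cell cycle inhibitor p21, was read at 7.37 to 23.3 CPM (median 10.6) with the guide and 22.1 to 53.4 CPM (median 33) with vehicle (log2 fold change -1.48, SE 0.26, adjusted p = 2.11e-04), with a small overlap. Cyclins and their kinases fell in 8 of 25 cases and rose in 1. Ccnd1, the cyclin of the start of the cycle, was 29.4 ± 8.34 CPM with the guide against 54.5 ± 8.54 CPM with vehicle (log2 fold change -0.89, adjusted p = 1.11e-04), and Cdk1, the mitotic kinase, 1.13 ± 0.436 CPM with the guide against 3.2 ± 0.958 CPM with vehicle (log2 fold change -1.49, adjusted p = 1.57e-05).

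Other marked falls came in genes of low abundance. Cd207, langerin, a lectin of dendritic cells and some macrophages, was read at 1.09 to 2.9 CPM (median 1.55) with the guide and 5.33 to 16 CPM (median 11) with vehicle (log2 fold change -2.74, SE 0.24, adjusted p = 5.90e-08). Mtmr11, a myotubularin-related protein, was read at 0.975 to 3.64 CPM (median 1.3) with the guide and 5.47 to 16.2 CPM (median 11) with vehicle (log2 fold change -2.73, SE 0.25, adjusted p = 8.47e-08), and Fam83a, which binds signalling kinases, at 0.824 to 4.03 CPM (median 1.76) with the guide and 8.1 to 25.4 CPM (median 12.7) with vehicle (log2 fold change -2.71, SE 0.29, adjusted p = 9.40e-07). Plat, tissue plasminogen activator, was read at 0.075 to 0.965 CPM (median 0.486) with the guide and 2.18 to 5.6 CPM (median 4.33) with vehicle (log2 fold change -2.97, SE 0.28, adjusted p = 6.02e-08). All 4 were lower in every guide library than in any vehicle library. Mtmr11, Fam83a and Plat were lower again in chow, at 0.522 ± 0.206 CPM, 0.638 ± 0.387 CPM and 0.194 ± 0.15 CPM. Slc25a24, a carrier of ATP and magnesium, had the largest fall of the solute carriers. It was read at 1.12 to 2.84 CPM (median 1.74) with the guide and 4.97 to 16 CPM (median 9.88) with vehicle (log2 fold change -2.51, adjusted p = 5.92e-08). Of 221 solute carriers 39 fell and 60 rose (median 0.07), 44.8% in all beside 38.6% of all genes. Over all genes 19% fell, so falls do not mark this family.

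**Figure D5:**
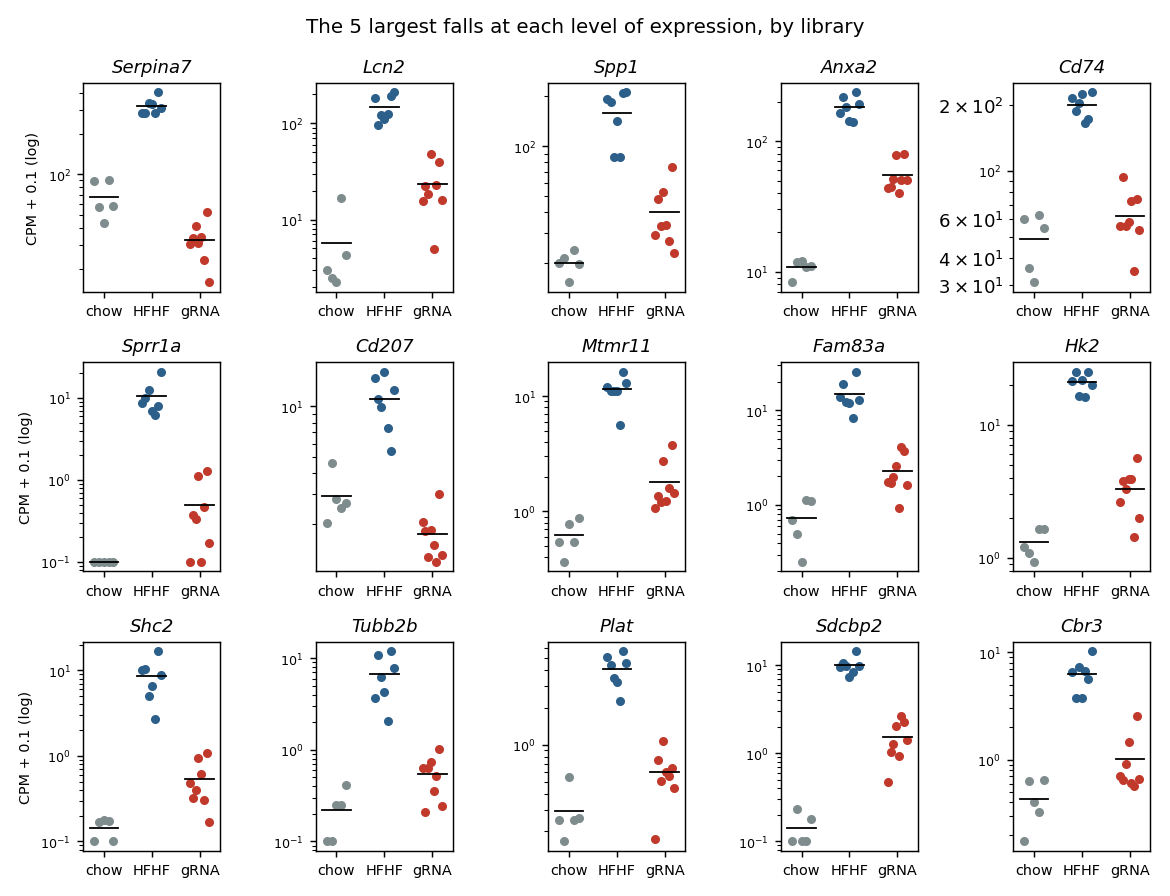
CPM plus 0.1 on a log axis in each chow, HFHF vehicle (HFHF) and Flcn guide (gRNA) library for the 5 largest falls at each of 3 levels of expression (at least 100 CPM, 10 to 100 CPM and 4 to 10 CPM, from top to bottom); bars are group means. No guide library overlaps a vehicle library in any of the 15 genes, a property by which they were chosen.

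Genes of antigen presentation and inflammation were lower. Of 9 MHC class II genes 7 fell and 1 rose (median -1.60). Cd74, the invariant chain, was read at 34.7 to 93.3 CPM (median 57.1) with the guide and 165 to 229 CPM (median 204) with vehicle (log2 fold change -1.68, SE 0.18, adjusted p = 7.72e-07), and H2-Eb1, a class II chain, at 10.5 to 31.3 CPM (median 21.7) with the guide and 64.7 to 95.3 CPM (median 79.9) with vehicle (log2 fold change -1.91, SE 0.19, adjusted p = 5.20e-07). Ciita, the master activator of these genes, was 2.38 ± 0.663 CPM with the guide against 6.49 ± 1.47 CPM with vehicle (log2 fold change -1.44, adjusted p = 9.93e-07). None of these overlapped between groups. The gene that rose, H2-Ob, named after its values were seen, is a class II chain of B cells. It was 1.95 ± 0.653 CPM with the guide against 0.912 ± 0.329 CPM with vehicle (log2 fold change 1.09, adjusted p = 8.83e-04).

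Chemokine and cytokine genes fell in 20 of 33 cases and rose in 2 (median -0.78). Cxcl14 was read at 0.75 to 1.54 CPM (median 1.13) with the guide and 3.52 to 6.53 CPM (median 4.54) with vehicle (log2 fold change -2.04, SE 0.20, adjusted p = 9.45e-08), Csf1, the growth factor of macrophages, at 5.13 to 8.51 CPM (median 5.76) with the guide and 11.2 to 14 CPM (median 12.2) with vehicle (log2 fold change -0.94, SE 0.10, adjusted p = 4.35e-07), and Ccl7, which draws monocytes, at 0.0587 to 0.45 CPM (median 0.107) with the guide and 0.785 to 1.19 CPM (median 0.932) with vehicle (log2 fold change -2.59, SE 0.33, adjusted p = 2.96e-06). The ranges were separate in all 3. Toll-like receptors fell in 6 of 11 cases and rose in 1, with Tlr1 at 1.57 ± 0.51 CPM with the guide against 5.23 ± 1.18 CPM with vehicle (log2 fold change -1.73, adjusted p = 7.11e-07). Interleukin and TNF receptors fell in 21 of 40 cases and rose in 4, including Il12rb2 above. C-type lectins fell in 8 and rose in 5 of 20, or fell in 5 when the 15 HFHF libraries were fitted alone. Clec4a2, an inhibitory receptor of myeloid cells, was 0.728 ± 0.28 CPM with the guide against 3.33 ± 0.349 CPM with vehicle (log2 fold change -2.17, adjusted p = 8.69e-08). Interferon-induced GTPases fell in 8 of 18 cases and did not pass in 10, 44.4% called in all beside 38.6% of all genes. Falls made up 19% over all genes. The groups overlapped in each of the 18. Gbp2 was read at 4.39 to 10.4 CPM (median 6.07) with the guide and 9.87 to 28.3 CPM (median 20.6) with vehicle (log2 fold change -1.47, adjusted p = 9.95e-05). Beside these falls, monocyte-derived macrophage marker sums had a median of 140 CPM with the guide and 300 CPM with vehicle, with overlap. Of these 9 markers 7 fell and 0 rose, but Gpnmb ranged over 35.5 to 142 CPM with the guide against 9.61 to 90.7 CPM with vehicle. Kupffer cell sums overlapped, and 3 of those 5 markers rose. T and NK cell markers summed to 4.69 to 11.3 CPM with the guide and 7.1 to 20.3 CPM with vehicle (1 rose and 5 fell of 7 tested). The part of these cells in the falls was not tested.

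Imprinted genes, which are expressed from a single parental allele in at least some tissues, fell in 11 of 21 cases and rose in 1 (median -0.40). The counts do not tell the parental alleles apart, so imprinting in these livers was not tested. Plagl1, a regulator of this network, was 2.14 ± 0.506 CPM with the guide against 3.9 ± 0.712 CPM with vehicle (log2 fold change -0.86, adjusted p = 3.67e-04). Airn, a long noncoding RNA, was 1.16 ± 0.271 CPM with the guide against 3.16 ± 1.21 CPM with vehicle (log2 fold change -1.45, adjusted p = 1.97e-05). It lies antisense to Igf2r, and without strand information in the labels its reads cannot be told from those of that gene. Dcn, decorin, is made by stellate cells and was 171 ± 18.8 CPM with the guide against 311 ± 39.3 CPM with vehicle (log2 fold change -0.86, adjusted p = 1.35e-07).

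Large gene families of the basic machinery had medians between -0.17 and 0.06. Of 339 Zfp zinc finger genes 56 rose and 21 fell (median 0.06), 22.7% in all beside 38.6% of all genes, and under upper-quartile scaling 36 rose and 31 fell. Proteasome subunits rose in 4 and fell in 4 of 48 cases, with 3 to 8 rises and 2 to 6 falls as each library was left out and 3 and 9 under upper-quartile scaling. Those that fell included Psmb8, the immunoproteasome subunit (log2 fold change -0.44, adjusted p = 8.41e-04). Mediator subunits rose in 2 and fell in 2 of 30, with 0 to 3 rises as each library was left out and 0 under upper-quartile scaling. Of the proteasome and mediator subunits 16.7% and 13.3% were called, beside 38.6% of all genes. Of 59 heat shock and DnaJ proteins 10 rose and 3 fell, 22% in all beside 38.6% of all genes, with 6 falls under upper-quartile scaling. Hspb1, a small heat shock protein, had the largest rise of these and was read at 49.2 to 78.5 CPM (median 62.4) with the guide and 22.3 to 31.2 CPM (median 27.2) with vehicle (log2 fold change 1.21, SE 0.14, adjusted p = 1.81e-06), with chow at 9.12 ± 3.42 CPM. Cytosolic ribosomal proteins showed small falls: 42 of 80 fell and 38 did not pass, a median of -0.17, but the number that fell was 63 under upper-quartile scaling and ran from 21 to 59 as each library was left out. Rps12 was 91.5 ± 8.61 CPM with the guide against 120.2 ± 16.5 CPM with vehicle (log2 fold change -0.39, adjusted p = 4.92e-04).

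Guide libraries spread more widely than vehicle libraries. Over 7662 genes of at least 10 CPM the median SD of log2 CPM was 0.164 with the guide, 0.131 with vehicle and 0.129 on chow, and the guide group had the larger SD in 68.7% of the genes. Genes that were not called gave nearly the same values, 0.161 and 0.126. Among genes called with at least a 2-fold change, the guide SD was the larger in 53.2% of the rises and 66% of the falls. The part of guide replicate 8, whose title carries another number, in this wider spread was not tested. Cplane1, a protein of cilium assembly, had one of the widest spreads among genes without overlap changed at least 2-fold and was read at 11 to 126 CPM (median 24.7) with the guide and 5.1 to 8.66 CPM (median 6.5) with vehicle (log2 fold change 2.42, SE 0.46, adjusted p = 4.33e-04). One library, guide replicate 6, stood at 126.3 CPM with the next at 41.1. Pdcd4, a brake on translation, had one of the narrowest spreads of the same set, together with Oat and Krt18. It was read at 142 to 169 CPM (median 159.9) with the guide and 68.9 to 86.7 CPM (median 80.8) with vehicle (log2 fold change 1.01, SE 0.10, adjusted p = 6.45e-08), while the chow mean, 156 ± 36.9 CPM, lay inside the guide range.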

How the data were processed

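Polyadenylated liver RNA was sequenced as single-end reads with unique molecular identifiers in the adapters, per the labels' protocols, and mapped to GRCm38, per the submitters' processing notes. No source used here gives the aligner, the counter or how the identifiers were used. The deposited table holds expected counts per gene, made by the authors, of which 77.8% of values of at least 1 are whole, and they were rounded here. One column matched no sample and was not used, nor were 22 features that name no gene. edgeR 4.0.16 in R 4.3.3 fitted all 20 libraries in 3 groups (filterByExpr, TMM, robust quasi-likelihood test, Benjamini-Hochberg over 13667 genes), with no covariate. Counting error is small for abundant genes, where the number of libraries limits the precision, but not for values well under 1 CPM, some of which rest on single counts. On simulated data with 200 changed genes among 13667, the fit recovered 70.1% of 1.5-fold, 89.6% of 2-fold and 100% of 4-fold changes, and 1.14% of calls were false. Those counts were drawn with the fit's own dispersions, and far fewer genes were changed than the 5270 called here. The simulation therefore cannot test the scaling or the model, and 1.14% is not an error rate for the 5270 calls. Alternatives were DESeq2 1.42.0, other scalings and filters, the 15 HFHF libraries alone, and each library left out.

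Members and gene lists were chosen with earlier results of these data known. Genes were named by rule. Among genes without overlap between groups and outside names of lysosome, matrix and mitochondrial genes these were the 5 largest rises and falls in each of 3 tiers of mean CPM in the higher group (at least 100, 10 to 100, 4 to 10), the 5 largest gains and losses in CPM, and the 3 widest and 3 narrowest spreads over guide libraries among genes of at least 10 CPM changed at least 2-fold. From each list or family at most 4 members were named, those of lowest p, with or without overlap and whatever their class. Cell type markers were named as such. Some genes that this rule names are not reported here. Replicate numbers follow accession order and do not pair samples.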

Additional observations from a re-analysis of the deposited data

Results flagged for a closer look

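In 90 groups of values examined, 6 values, from 4 libraries, stood far from the others of their group. The rule is one that chance meets in about 1 of 20 groups. The groups were Flcn, the genes named by size of change or by spread, and the response slopes, in the 8 guide and the 7 vehicle libraries. Genes named only as members of lists or families, or only as markers, were not examined. Cplane1 in guide replicate 6 was 126.3 CPM, with the next library at 41.1 CPM. Slc1a2 was lowest in guide replicate 7, at 215.9 CPM against 287.1 CPM in the next, still above every vehicle library. That library also held the highest Cbr3 level of its group, 2.468 CPM with the next at 1.351 CPM, and had the lowest response slope of the guide libraries, 0.687. In vehicle replicate 7, Sprr1a was 20.82 CPM (next 12.37) and Prkg2 was 0.9792 CPM (next 0.6711). Il12rb2 in vehicle replicate 1 was 0.7289 CPM (next 0.4141). Some of the genes not examined also have a single high library. In guide replicate 6, Sptlc3 was 33.1 CPM (next 11.6) and Cfd was 35.3 CPM (next 15.4). Slc1a4 in vehicle replicate 2 was 38.6 CPM (next 23.2).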

How the results depend on the processing

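The number of genes called was between 4632 and 5381 over all alternatives, against 5270, and every gene called both ways had the same direction. The number at least 2-fold higher or lower stayed within 1.5 times of its main value in every alternative. Of 6017 values for 288 genes under these settings, 5971 stayed on their side of the threshold, 46 in 6 genes no longer passed, and 0 reversed. Those 6 are Fga, Med1, Med23, Med10, H2afy2 and H2afy. The 288 genes are those picked by the naming rule, with at most 4 called members of lowest p per list or family. Their choice by low p favours calls that stay. Genes named only as markers, or after their values were seen, were not checked in this way. Where a setting's filter left a gene out, no value was counted. Guide replicate 8 carries another number in its title than the other guide libraries. Without it 5287 genes were called, 4884 of them shared. The group difference in response slope was 0.809 over genes changed at least 2-fold and 0.828 with DESeq2 size factors. No paired analysis was possible because the replicate numbers only follow the order of accessions.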

Other observations

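Immune cell markers did not move one way. All 5 tested markers of B and plasma cells and 3 of 5 of Kupffer cells rose, while 7 of 9 of monocyte-derived macrophages and 5 of 7 of T and NK cells fell. Ms4a1, which encodes CD20, was 1.86 ± 0.691 CPM with the guide against 0.779 ± 0.345 CPM with vehicle (log2 fold change 1.24, adjusted p = 8.35e-04, edgeR), and Cd79a, a signalling chain of the B cell receptor, 1.62 ± 0.652 CPM with the guide against 0.708 ± 0.21 CPM with vehicle (log2 fold change 1.18, adjusted p = 6.23e-04). Jchain, which joins the units of secreted immunoglobulins A and M, was 4.79 ± 3.3 CPM with the guide against 2.02 ± 0.935 CPM with vehicle (log2 fold change 1.26, adjusted p = 0.00961). Guide and vehicle libraries overlapped for Ms4a1, Cd79a and Jchain. Ighm, the heavy chain of immunoglobulin M, was 38 ± 24.9 CPM with the guide against 14 ± 5.42 CPM with vehicle (log2 fold change 1.45, adjusted p = 0.00517), named after its values were seen. Pigr, the receptor for these joined immunoglobulins, rose in hepatocyte-rich tissue as given above. The levels of these markers are low, and whether the change lies in cell number was not tested.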
